A study of Mus musculus with 6 samples.

Results

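The Hox genes, the transcription factor genes that record the position of a tissue along the body, were examined in skin from the back of the mouse. The members were all genes whose symbol was Hox, a cluster letter from a to d and a number, which gave 39 of the 21959 genes in the deposited table. The study compared dorsal skin of 7-week-old male mice of the C57BL/6 inbred strain, whose back had been shaved in telogen, the resting phase of the hair cycle. The 3 vehicle mice received 30% dipropylene glycol in water on the shaved skin daily for 7 days, and the 3 rebamipide mice received 3% rebamipide, a gastric ulcer drug, over the same 7 days. All 6 libraries came from full-thickness skin of single mice, and poly-A RNA was sequenced. No label gives the site on the back from which a library was taken, so treatment and the position of the sampled piece cannot be told apart.

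Hox genes lie in 4 clusters, named A to D, and are numbered by paralog group from 1 to 13. In the embryo, low-numbered genes are switched on in the hindbrain, neck and shoulder region, and higher-numbered genes come on progressively towards the trunk, the loin and the tail. Adult fibroblasts and fat cells keep much of this pattern, so that the set of Hox genes in a piece of skin reflects where on the body it lay. Their proteins bind DNA through the homeodomain, usually with PBX and MEIS partner proteins. HOXC13 is a separate case, since it is also used in the growing hair follicle, where it activates hair keratin genes at any position.

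In the table, whose positions the submitters' processing notes assign to GRCm39, cluster A lies on chromosome 6 with 11 members. Cluster B spans 173.9 kb on chromosome 11 (96085142 to 96259082) with 10 members, cluster C 115.7 kb on chromosome 15 (102829538 to 102945278) with 9, and cluster D 96.83 kb on chromosome 2 (74498654 to 74595486) with 9. The sequences of the homeobox, the stretch that codes for the homeodomain, were read from GENCODE transcripts on GRCm38 and are 180 bases long in each member. They are shown for Hoxa4 and Hoxa5, neighbours that rose with rebamipide, for Hoxd10 as the highest-numbered cluster D gene with at least 10 counts in at least 3 libraries, and for Hoxc13. The capitals mark the 18 bases that code for the conserved core of the helix that reads DNA. Each homeobox lies in coding sequence within 1 exon. The positions are chr6:52190483-52190662 on the minus strand for Hoxa4 (exon 2) and chr6:52202632-52202811 on the minus strand for Hoxa5 (exon 2). They are chr2:74694141-74694320 on the plus strand for Hoxd10 (exon 2) and chr15:102927210-102927389 on the plus strand for Hoxc13 (exon 2).
Hoxa4: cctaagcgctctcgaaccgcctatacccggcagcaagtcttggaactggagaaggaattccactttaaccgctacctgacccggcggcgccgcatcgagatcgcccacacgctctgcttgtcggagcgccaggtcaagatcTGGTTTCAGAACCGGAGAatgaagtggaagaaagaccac
Hoxa5: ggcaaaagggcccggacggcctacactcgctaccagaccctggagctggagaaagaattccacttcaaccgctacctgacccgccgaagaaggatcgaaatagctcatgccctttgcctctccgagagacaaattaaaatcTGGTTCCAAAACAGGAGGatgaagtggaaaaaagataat
Hoxd10: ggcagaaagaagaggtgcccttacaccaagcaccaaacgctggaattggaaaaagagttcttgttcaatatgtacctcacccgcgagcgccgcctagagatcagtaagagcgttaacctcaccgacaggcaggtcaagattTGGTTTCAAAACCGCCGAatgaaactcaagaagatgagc
Hoxc13: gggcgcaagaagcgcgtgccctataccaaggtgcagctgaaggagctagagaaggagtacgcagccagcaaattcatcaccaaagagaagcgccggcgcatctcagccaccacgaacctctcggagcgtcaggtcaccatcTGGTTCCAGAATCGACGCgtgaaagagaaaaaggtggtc

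The homeoboxes of members with the same number were on the median closer to each other than those of members of the same cluster. The median identity was 80.6% over 42 pairs of the same paralog group, 61.7% over 172 pairs of the same cluster and 60.6% over the 527 other pairs. The 35 pairs of adjacent members of a cluster had a median of 68.3% and reached 88.9%. Hoxa4 shared 82.8% of its homeobox bases with Hoxb4, 71.1% with its neighbour Hoxa5 and 51.7% with Hoxc13. The longest run of identical bases between homeoboxes of different members was 52, between Hoxa6 and Hoxb4, and for the 4 genes that rose it was 24 to 36. A sequenced read that lies wholly within such a run fits both members, and how such reads were counted is not given in the sources used here.

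The libraries held 38676018 to 39915276 counts in the vehicle group and 32709801 to 34706852 in the rebamipide group. Hox genes took 5537 to 16577 of these counts. Levels are given as CPM, the counts scaled to a fixed library size after TMM normalization, and levels of different genes are set beside each other as CPM per kb of gene length. A count of 0 in a library still allows up to 3 counts, which is 0.0601 to 0.0642 CPM with vehicle and 0.0988 to 0.117 CPM with rebamipide, for counting error only. Among genes with 1 to 6 counts, 76.4% to 79.4% of the counts were even, so a count of 2 may be 1 sequenced fragment counted at both ends. Some libraries differed in their cell type markers from the others. In Rebamipide 3 the basal keratinocyte marker Krt14 was at 0 counts and Krt5 at 4, although the label is skin. The list of 6 basal keratinocyte markers still summed to 131.1 CPM in that library. The brown fat gene Ucp1 was at 0 in all vehicle libraries, whereas Rebamipide 1, 2 and 3 held 81048, 220449 and 150572 of its counts.

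The Hox genes in use formed a block from the low numbers to group 10, or to group 9 in Rebamipide 3, with nearly nothing beyond it except Hoxc13. At least 10 counts were reached by 27, 28 and 27 members in the vehicle libraries and by 26, 23 and 23 in the rebamipide libraries, a mean of 27.3 ± 0.577 against 24 ± 1.73 (SD, n = 3 each). In all, 21 members reached 10 counts in every library and 11 in none. The 8 members of groups 11 to 13 other than Hoxc13, which pattern the tail, the genital region and the far limb, never exceeded 2 counts. Hoxb13, Hoxd12 and Hoxd13 were at 0 in all 6 libraries. The map of the members by cluster and number shows this block and the missing upper end.

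**Figure D1:**
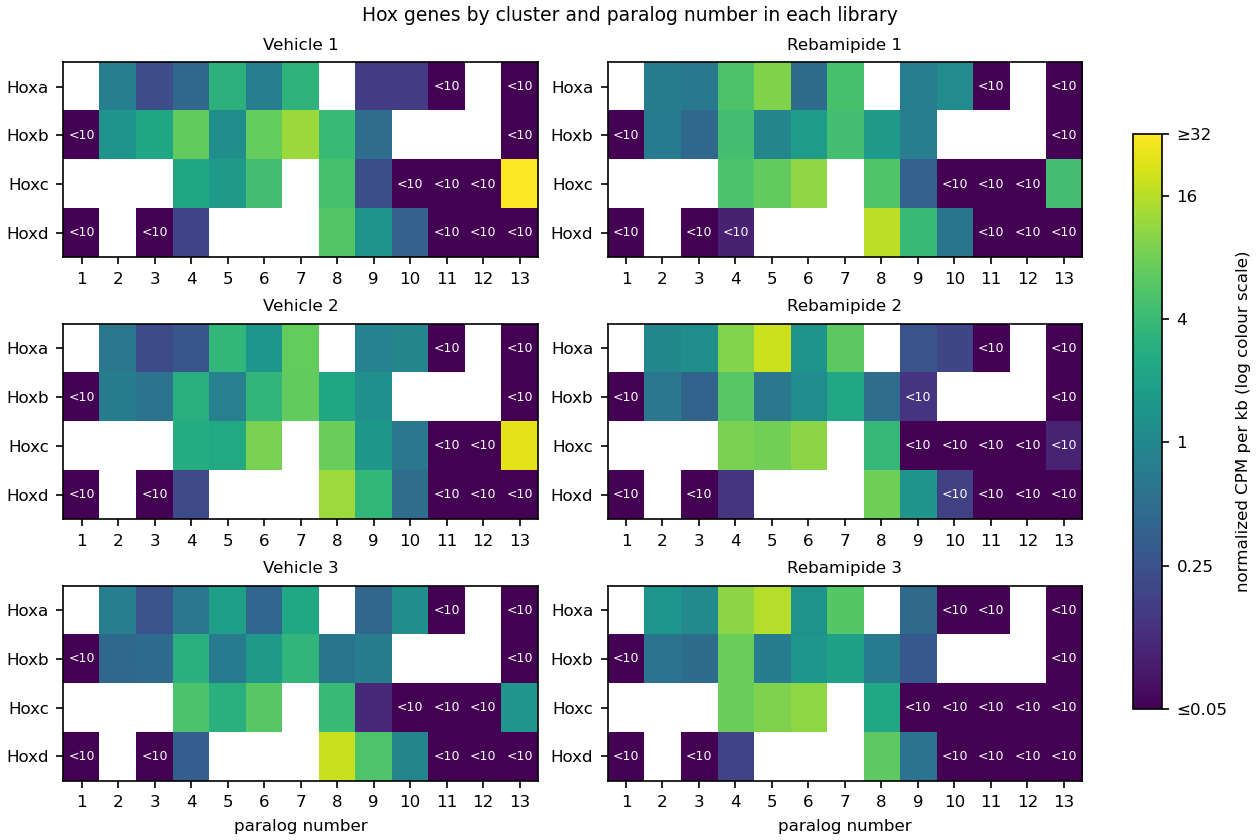
Level of 38 of the 39 Hox genes in each library (colour, normalized CPM per kb on a log scale), by cluster and paralog number. Signal runs from the low numbers to group 9 or 10, with group 10 at 2 counts or fewer in Rebamipide 3, and beyond group 10 Hoxc13 alone reached more than 2 counts.

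The upper end of the block lay lower in 2 of the rebamipide libraries. In cluster A the highest-numbered member with at least 10 counts was Hoxa10 in every library except Rebamipide 3, where it was Hoxa9. In cluster C, Hoxc13 left out, it was Hoxc9 in Vehicle 1, Vehicle 3 and Rebamipide 1, Hoxc10 in Vehicle 2, and Hoxc8 in Rebamipide 2 and 3. In cluster D it was Hoxd10 in the vehicle libraries and Rebamipide 1, and Hoxd9 in the other two. In cluster B it was Hoxb9 in all libraries but Rebamipide 2, where it was Hoxb8. These limits depend on the count minimum and on depth, which was lower in the rebamipide libraries, and they carry no test.

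By level, the middle of the block carried most of the signal. Without Hoxc13, groups 5 to 8 made up 73.3%, 75.4% and 67.8% of the summed Hox level per kb in the vehicle libraries and 70.8%, 66.7% and 64.2% in the rebamipide libraries. Groups 1 to 4 made up 22.3%, 12.0% and 18.2% against 20.6%, 31.0% and 34.2%. Groups 9 and 10 made up 4.33%, 12.6% and 13.9% against 8.54%, 2.37% and 1.58%. Rebamipide 1 lay within the range of the vehicle libraries for all 3 of these shares, while Rebamipide 2 and 3 had more of groups 1 to 4 and less of groups 9 and 10 than any vehicle library. The paralog number weighted by level was 6.16, 6.78 and 6.77 in the vehicle libraries and 6.24, 5.42 and 5.29 in the rebamipide libraries. With Hoxc13 included it was 9.71, 8.30 and 6.91 against 6.57, 5.43 and 5.29. These shares are within a library and do not depend on the scaling between libraries.

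**Figure D2:**
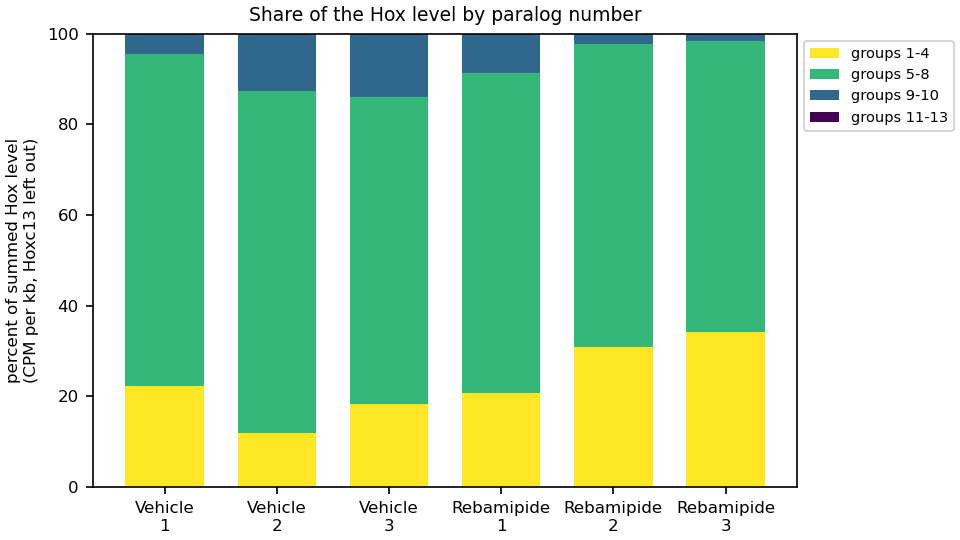
Share of the summed Hox level (percent of CPM per kb, Hoxc13 left out) that came from paralog groups 1-4, 5-8, 9-10 and 11-13, with 1 bar per library. Rebamipide 2 and 3 have the largest shares of groups 1-4, 31.0% and 34.2%, and the smallest of groups 9-10, 2.37% and 1.58%.

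The shares of the groups at either end of the middle zone, again with Hoxc13 left out, also varied among libraries. Group 5 made up 9.26%, 9.24% and 8.86% of the level in the vehicle libraries and 19.0%, 30.4% and 28.9% in the rebamipide libraries, with no overlap. Group 8 made up 21.9%, 29.6% and 36.8% against 26.6%, 12.9% and 10.9%. The clusters also shared the signal unequally among libraries. With Hoxc13 left out, cluster A held 14.4%, 20.7% and 13.3% in the vehicle libraries and 26.8%, 43.6% and 42.2% in the rebamipide libraries. Cluster B held 53.2% in Vehicle 1 and between 12.8% and 25.1% in the other 5 libraries, and cluster D held 40.1% in Vehicle 3 and between 8.36% and 23.8% in the others. On this measure the leading cluster was B in Vehicle 1, C in Vehicle 2 and D in Vehicle 3. With Hoxc13 included, cluster C led in Vehicle 1 (61.9%, with cluster B at 25.6%) and in Vehicle 2 (48.5%).

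The highest single levels per kb came from different genes in the groups. In the vehicle libraries, apart from Hoxc13, the highest mean was that of Hoxd8 (12.3 CPM per kb), followed by Hoxb7 (7.47) and Hoxc6 (6.43). In the rebamipide libraries it was Hoxa5 (14.8 CPM per kb), followed by Hoxc6 (10.7), Hoxd8 (10.3), Hoxa4 (8.50) and Hoxc5 (8.03). Hoxc6 and Hoxd8 were thus among the highest in both groups, while Hoxa4 had a vehicle mean of 0.455 CPM per kb.

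To ask which Hox genes differed between treatments, all 14875 genes that passed edgeR's expression filter were fitted together, and 27 of the 39 members were among them. A difference was called at an adjusted p-value under 0.05. Of the 27, 4 were higher in rebamipide-treated skin (14.8% of those tested, against 14.1% of all genes tested), namely Hoxa3, Hoxa4, Hoxa5 and Hoxc5. None was lower (against 6.51% of all genes), while 1, Hoxb6, was lower at an unadjusted p-value under 0.05 with edgeR, DESeq2 called it lower after adjustment and limma-voom called none. The share of members called higher is near that of all genes. Scaling by total counts alone gave 4 higher and 1 lower, Hoxb6, and called 8.46% of all genes tested higher and 25.2% lower. The median log2 fold change of the 27 was -0.25, beside -0.17 over all genes tested, with 12 members above 0 and 15 below. The rebamipide libraries lay above all vehicle libraries for 7 members (24.5% of all genes tested did so, and 25.9% of the members) and below them for 1 (24% of all genes and 3.7% of the members). Under scaling by total counts alone they lay above for 4 tested members, the 4 called, and below for 3, Hoxb3, Hoxb6 and Hoxd4, while 13% of all genes tested lay above and 47.9% below. As the tissue is bulk, fewer cells that use a gene and less RNA per cell cannot be told apart.

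**Figure D3:**
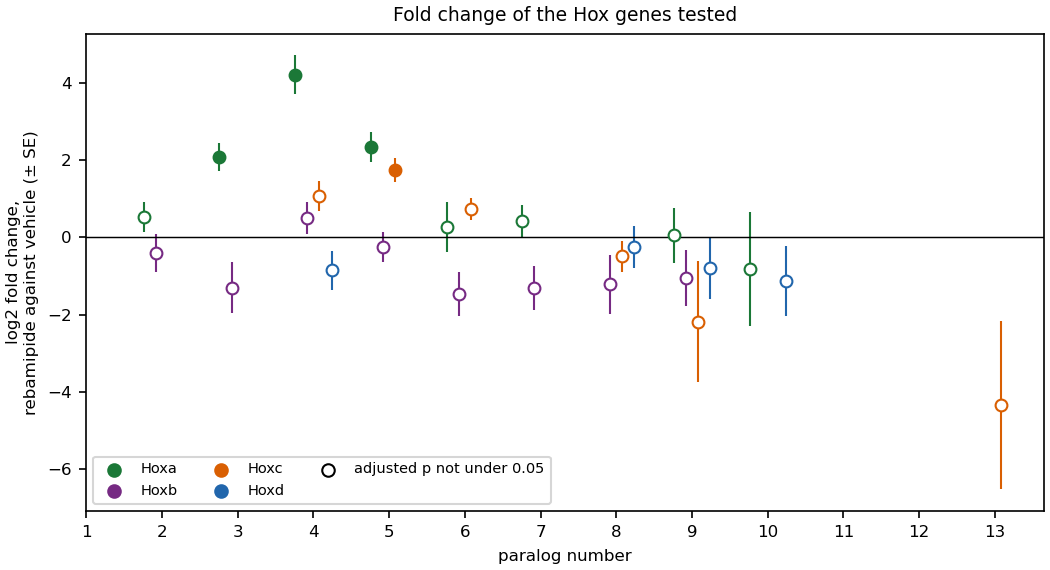
Log2 fold change (rebamipide minus vehicle, edgeR) with its standard error for 26 of the 27 Hox genes tested, arranged by paralog number and cluster. The 4 genes called higher are Hoxa3, Hoxa4, Hoxa5 and Hoxc5, all of groups 3 to 5, and no member was called lower.

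The genes that rose all had numbers from 3 to 5, and 3 of the 4 are neighbours in cluster A. Hoxa4, a gene of the neck and upper chest level, had 34, 22 and 49 counts in the vehicle libraries and 252, 399 and 440 in the rebamipide libraries. The groups did not overlap, and the lowest rebamipide level was 7.92 times the highest vehicle level. The mean rose 18.6-fold, from 0.725 ± 0.303 to 13.6 ± 4.59 CPM (SD, n = 3 each), a log2 fold change of 4.22 ± 0.497 (SE) with an adjusted p-value of 0.00939 by edgeR.

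Hoxa5, which patterns the lower neck and is also active in lung and fat, had 301, 331 and 167 counts in the vehicle libraries and 532, 934 and 763 in the rebamipide libraries. Every rebamipide level lay above every vehicle level. Its mean rose from 5.44 ± 1.66 to 27.7 ± 9.52 CPM, with a log2 fold change of 2.35 ± 0.394 (SE, adjusted p = 0.0146 by edgeR). Hoxa3, needed for thymus and parathyroid formation, had 69, 63 and 74 counts against 123, 193 and 168. It too did not overlap between groups, and it had a log2 fold change of 2.08 ± 0.364 (SE, adjusted p = 0.0161 by edgeR).

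Hoxc5, the member of the same paralog group in cluster C, had 252, 386 and 433 counts in the vehicle libraries and 634, 646 and 744 in the rebamipide libraries. The rebamipide levels lay close together and above all vehicle levels. Its log2 fold change was 1.75 ± 0.304 (SE, adjusted p = 0.0158 by edgeR). The third gene of that paralog group, Hoxb5, had 174, 113 and 90 counts against 80, 46 and 55, a log2 fold change of -0.24 that did not pass the test (adjusted p = 0.667 by edgeR) and was 0.03 without Vehicle 1. The difference between the paralogs was not tested.

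Under scaling by total counts alone the log2 fold changes were smaller, at 3.57 for Hoxa4, 1.69 for Hoxa5, 1.43 for Hoxa3 and 1.12 for Hoxc5, and all 4 genes were still called. Without Vehicle 2 the adjusted p-values of the 4 genes by edgeR were 0.0747 to 0.0951, and without Rebamipide 2 they were 0.0573 to 0.0816. In those fits edgeR called 0 and 1 of all genes, while the log2 fold changes of Hoxa4 were 3.92 and 4.11 and those of Hoxc5 1.76 and 1.75. DESeq2 called all 4 higher with any single library left out. The table lists overlapping rows on the same strand, with the span of Hoxa3 covering Hoxa4, Hoxa5 and Hoxa6 and that of Hoxc5 covering Hoxc6, Hoxc8 and Hoxc9 and overlapping Hoxc10 in part, so how reads were divided between these genes is uncertain.

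**Figure D4:**
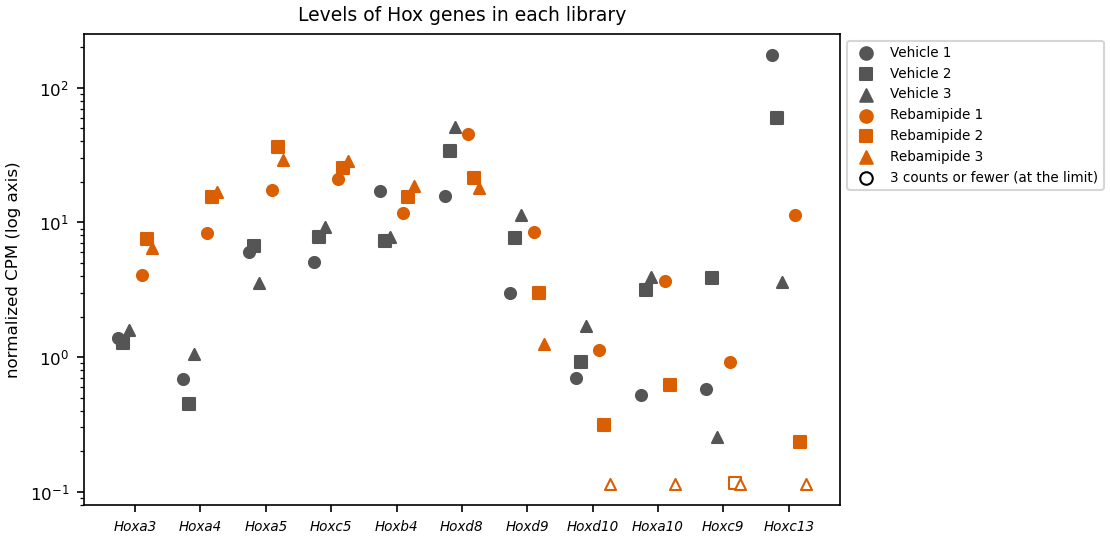
Normalized CPM (log axis) of 11 Hox genes in each library, 1 point per library, with open symbols at the limit of 3 counts. Hoxa3, Hoxa4, Hoxa5 and Hoxc5 separate the groups, whereas Hoxb4, Hoxd8 and the genes of groups 9 and 10 overlap.

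Other low-numbered members did not pass the test. Hoxc4 had 293, 347 and 618 counts against 403, 568 and 507 with an adjusted p-value of 0.0995 by edgeR, and its levels did not overlap between groups. Hoxc6, of the chest level, had 552, 1037 and 671 counts against 792, 645 and 676, and its levels did not overlap either (log2 fold change 0.73, adjusted p = 0.109 by edgeR). Under scaling by total counts alone, the levels of Hoxc4 and Hoxc6 overlapped between groups and those of the 4 called genes still did not. Hoxb4 had 861, 361 and 363 counts against 358, 397 and 493, so that Vehicle 1 held the highest count, and its log2 fold change was 0.51 (adjusted p = 0.385 by edgeR), below 0 under scaling by total counts alone. With 1 library left out it ran from 0.28 without Vehicle 2 to 0.99 without Vehicle 1 (adjusted p = 0.0759 by edgeR). Without Vehicle 1, DESeq2 called Hoxb4 higher.

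Of the genes of groups 1 to 4, 12 members, 9 were tested and 2 rose (22.2%, against 14.1% of all genes tested), with a median log2 fold change of 0.53. Of groups 5 to 8, 11 of 11 were tested and 2 rose (18.2%), with a median of -0.24. Of groups 9 and 10, 6 of 7 were tested, with adjusted p-values of 0.313 or more by edgeR and a median of -0.94. With 1 library left out this median ran from -0.47 without Vehicle 3 to -2.23 without Rebamipide 1, and without Rebamipide 1 DESeq2 called 4 of the 6 lower, Hoxb9, Hoxc9, Hoxd9 and Hoxd10, while edgeR called 0, with 3 at an unadjusted p-value under 0.05. The median of groups 1 to 4 was 0.35 to 0.81 with 1 library left out and -0.11 under scaling by total counts alone, and that of groups 5 to 8 was -0.40 to 0.03 and -0.79. By cluster, the log2 fold change was above 0 for 8 of 9 tested members of cluster A, 1 of 8 of cluster B, 3 of 6 of cluster C and 0 of 4 of cluster D. Under scaling by total counts alone, which shifts the median of all genes by -0.60 on the log2 scale, it was above 0 for 4 of 9, 0 of 8, 3 of 6 and 0 of 4.

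Cluster B was highest in Vehicle 1. Hoxb7, a gene of the chest level and the cluster's highest by mean level per kb over all 6 libraries (Hoxb4 was higher in the rebamipide group), had 930, 515 and 257 counts in the vehicle libraries and 220, 92 and 81 in the rebamipide libraries. Its levels overlapped, since Rebamipide 1 lay above Vehicle 3 after normalization, and the log2 fold change of -1.31 ± 0.562 (SE) had an adjusted p-value of 0.136 by edgeR. With 1 library left out it ran from -0.78 without Vehicle 1 to -1.78 without Rebamipide 1, and edgeR never called it. DESeq2 called Hoxb7 lower without Vehicle 3 and without Rebamipide 1, but not with any other library left out. Hoxb6 had 681, 342 and 148 counts against 103, 58 and 76 (log2 fold change -1.47, adjusted p = 0.107 by edgeR). Its log2 fold change was -0.83 without Vehicle 1, and without Vehicle 3 it was -1.83 and passed the test (adjusted p = 0.0489 by edgeR). Hoxb9, the highest-numbered member in use, had 64, 162 and 94 counts against 62, 9 and 20 (adjusted p = 0.313 by edgeR).

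Cluster D was highest in Vehicle 3. Hoxd8, a gene of the chest and loin level, had 781, 1683 and 2391 counts in the vehicle libraries and 1387, 548 and 469 in the rebamipide libraries. Hoxd9 had 150, 379 and 533 against 256, 77 and 33, and Hoxd10, a gene of the loin and hindlimb level, had 35, 45 and 80 against 34, 8 and 2. After normalization Vehicle 3 was the highest library for all 3 genes, and the lowest was Vehicle 1 for Hoxd8 and Rebamipide 3 for Hoxd9 and Hoxd10. None passed the test, with adjusted p-values by edgeR of 0.751 for Hoxd8, 0.475 for Hoxd9 and 0.383 for Hoxd10.

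The upper ends of clusters A and C were at or near 0 in Rebamipide 3. Hoxa10 had 26, 154 and 185 counts in the vehicle libraries and 111, 16 and 0 in the rebamipide libraries (adjusted p = 0.699 by edgeR). Hoxc9 had 29, 189 and 12 counts against 28, 2 and 0. Vehicle 2 was thus the highest library for Hoxc9, and it was the only library with counts of Hoxc10, 63 against 0 in the other 5. Hoxa7, of the chest level, had 483, 980 and 325 counts against 423, 468 and 439 (log2 fold change 0.42, adjusted p = 0.480 by edgeR), and its direction turned under scaling by total counts alone. With 1 library left out its log2 fold change ran from 0.14 without Vehicle 3 to 0.95 without Vehicle 2. Without Vehicle 2, DESeq2 called Hoxa7 higher and edgeR did not.

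The 12 members outside the fit were low in nearly every library. Besides Hoxc10 and the 8 members of groups 11 to 13, they were Hoxb1 with 6, 6 and 4 counts in the vehicle libraries and 0 in each rebamipide library, Hoxd1 with at most 2, and Hoxd3 with 2 to 9. Hoxd4, which overlaps Hoxd3 in the table, had 27, 30 and 47 counts against 8, 10 and 14 and was the 1 tested member whose rebamipide levels after TMM normalization all lay below the vehicle levels (log2 fold change -0.86, adjusted p = 0.246 by edgeR). Low-numbered genes therefore did not all lie higher in the rebamipide libraries.

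Hoxc13 stood apart from the positional genes in its level and its spread. It had 8728, 2959 and 169 counts in the vehicle libraries and 346, 6 and 0 in the rebamipide libraries, and it made up 51.9% of the summed Hox level per kb in Vehicle 1. The groups overlapped, since Rebamipide 1 lay above Vehicle 3. The log2 fold change was -4.35 ± 2.17 (SE) and did not pass the test (adjusted p = 0.184 by edgeR), and leaving out 1 library moved it from -2.98 without Vehicle 1 (adjusted p = 0.386 by edgeR) to -9.38 without Rebamipide 1 (adjusted p = 0.0458 by edgeR). The summed level of the 12 growing hair follicle markers in the table, of which Hoxc13's known targets are part, was 18416.4, 8592.9 and 196.1 CPM in the vehicle libraries and 871.4, 3.94 and 0.229 CPM in the rebamipide libraries. The libraries ranked in the same order for Hoxc13 and for these markers.

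Cell type markers also differed among the libraries, and their part in the Hox pattern was not tested. The summed level of the 8 brown adipocyte markers was 213.7, 225.2 and 384.3 CPM in the vehicle libraries and 5039.9, 12960 and 10702.7 CPM in the rebamipide libraries, with 6 of 8 called higher, where 14.1% of all genes tested were. The 8 white adipocyte markers summed to 1869.6 to 5127.9 CPM with vehicle and 10303.7 to 20090.1 CPM with rebamipide, with 4 called higher, and the 6 endothelial markers to 227.8 to 525.3 and 1061.4 to 1470.5 CPM, with 4 called higher. These 3 lists did not overlap between groups in their sums and lay higher with rebamipide. In the other direction, the 7 dermal papilla markers summed to 39.84 to 153 CPM with vehicle and 1.68 to 35.17 CPM with rebamipide. Neither these sums nor those of the basal keratinocyte markers overlapped between groups. The 8 fibroblast markers summed to 12351.4, 14486.9 and 18846.4 CPM against 15845.7, 3723.5 and 1978.5. Rebamipide 2 and 3, the libraries with the lowest paralog numbers by level, thus had the least fibroblast signal. Both were also the lowest libraries for the basal keratinocyte, growing hair follicle, dermal papilla, melanocyte and leukocyte markers. The 6 basal keratinocyte markers summed to 2453.7 to 3979.3 CPM with vehicle and to 131.1 to 1141.2 CPM with rebamipide. The 8 fast muscle markers summed to 5789.5 to 29892.5 CPM and 292.9 to 38406.9 CPM, and the 5 slow muscle markers to 1.67 to 9.10 CPM and 6.75 to 260.6 CPM, with 4 of 5 called higher. The summed Hox level without Hoxc13 was 63.1 to 75.2 CPM per kb with vehicle and 88.0 to 92.7 CPM per kb with rebamipide, but under scaling by total counts alone it was 76.3 to 92.7 and 66.4 to 83.2 CPM per kb, so the direction depends on the scaling.

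Genes that act with Hox proteins or set their expression were counted in the same fit. Of 9 partner protein genes of the PBX, MEIS and PKNOX families, 1 passed the test and fell (11.1%, against 6.51% of all genes tested). Pbx2 and Pknox1, among the highest of these per kb, had log2 fold changes of 0.43 and -0.30 and did not pass the test. Of 20 Polycomb and Trithorax genes, which keep Hox genes silent or active, 2 rose and 2 fell (10% each, against 14.1% and 6.51% of all genes tested). Ezh1 rose by 0.74 on the log2 scale (adjusted p = 0.0411 by edgeR). Ezh2 and Cbx2, Polycomb genes typical of dividing cells, fell by 1.75 and 2.64 (adjusted p = 0.0488 and 0.0412 by edgeR). Wdr5 and Bmi1, the highest of this list per kb, had log2 fold changes of 0.10 and 0.06.

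Of 10 genes of the axial signals that switch Hox genes on in the embryo, 6 were tested. Of these, 1 rose and 1 fell (16.7% each, against 14.1% and 6.51% of all genes tested). Rarb, a retinoic acid receptor and itself a retinoic acid target, rose from 41, 31 and 58 counts to 145, 169 and 155 (log2 fold change 2.68, adjusted p = 0.0117 by edgeR). Rarg, the main retinoic acid receptor of epidermis, fell from 6968, 5857 and 4362 counts to 1927, 1145 and 888 (log2 fold change -1.31, adjusted p = 0.0293 by edgeR). Cyp26b1, which degrades retinoic acid, and Rara had log2 fold changes of -1.35 and -0.76 and did not pass the test. Cdx2 and Cdx4, the embryonic activators of trunk Hox genes, were at 0 counts in all libraries.

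Of 23 other genes that mark body position, 1 passed the test and rose (4.35%, against 14.1% of all genes tested). It was Tbx5, a gene of the forelimb and upper chest field, which had 34, 42 and 60 counts in the vehicle libraries and 201, 584 and 453 in the rebamipide libraries. The groups did not overlap, and the log2 fold change was 4.05 ± 0.576 (SE, adjusted p = 0.0107 by edgeR). Its hindlimb counterpart Tbx4 had 42, 118 and 66 counts against 40, 6 and 0, and Pitx1, which acts upstream of Tbx4 in the hindlimb, had 5, 60 and 23 against 24, 3 and 0. Both overlapped between groups and neither passed the test (adjusted p = 0.376 and 0.624 by edgeR). Their highest library was Vehicle 2, the library with Hoxc10 counts.

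The gene with the highest level per kb in that list was Tbx15, a gene of dorsal skin and fat, with 2275, 5416 and 6202 counts against 3045, 632 and 156 (adjusted p = 0.404 by edgeR). Twist1 and Msx2 followed, with log2 fold changes of -0.36 and -4.17 that did not pass the test. Over the 4 lists of related genes together, 4 of 58 tested rose and 4 fell (6.9% each, against 14.1% and 6.51% of all genes tested), compared with 2 and 13 under scaling by total counts alone. With edgeR, 0 of them rose without Vehicle 2 or Rebamipide 2, and 0 fell without either of these or Rebamipide 3. Among the vehicle libraries, Tbx15 was lowest in Vehicle 1, where Hoxd8, Hoxd9 and Hoxd10 were lowest too.

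**Figure D5:**
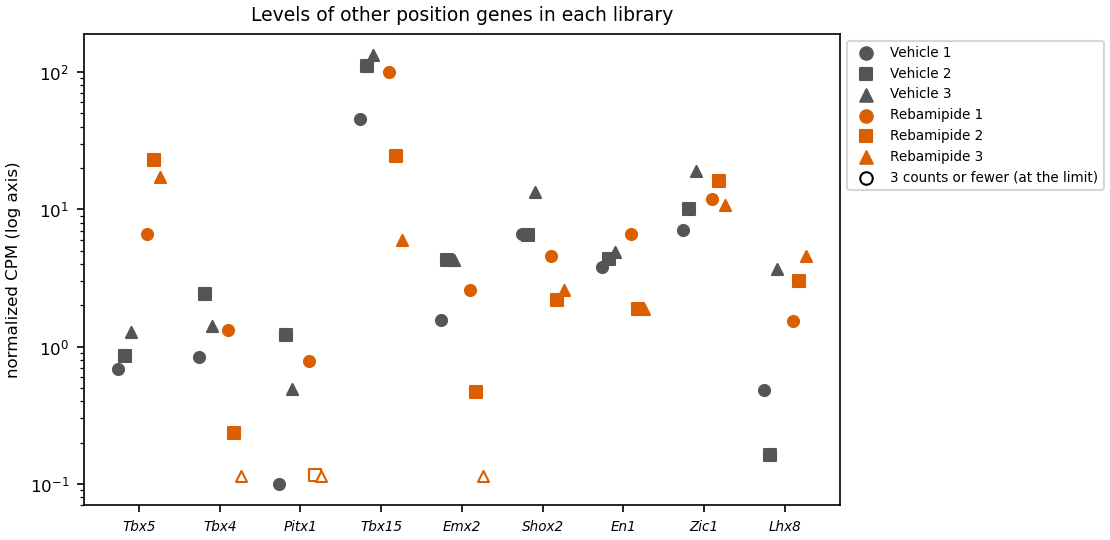
Normalized CPM (log axis) of other body position genes in each library, 1 point per library. Tbx5 lies higher in the 3 rebamipide libraries than in the 3 vehicle libraries, while Tbx4 and Pitx1 overlap, and both had 0 counts in Rebamipide 3.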

How the data were processed

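Counts and FPKM per gene were deposited by the authors in 1 table. Per the submitters' processing notes, fastp 0.22.0, HISAT2 2.1.0, HTSeq 0.9.1 and GRCm39 were used. The strand setting of counting is not given in the sources used here. The deposited counts are whole numbers without normalization, and the deposited FPKM values are those counts scaled by gene length and library total. The positions did not match GRCm38 (0 of 39 members within 1 kb), so homeobox positions, taken from GENCODE transcripts on GRCm38, were kept separate. The genes of the noncoding list and 1 hair follicle marker were not used here.

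Samples were grouped by the labels, with 3 mice per group. The p-values measure the spread between these mice. Replicates differed by far more than sampling noise. In R 4.3.3, the 14875 genes kept by filterByExpr were scaled with TMM factors and tested by the quasi-likelihood method of edgeR 4.0.16, with p-values adjusted by Benjamini and Hochberg's procedure. The procedure was tested on simulated counts that gave every gene the same spread, a simpler setting than these data. Levels per kb used the gene length listed in the deposited table. Alternatives used DESeq2 1.42.0, limma 3.58.1 (voom, and log2(FPKM + 1)), other normalizations, filters and thresholds, a replicate block and each library left out. The members and lists were chosen with earlier results of these data known. Full values are given for the 2 members per cluster with the highest level per kb, the highest-numbered members and those of groups 11 to 13 with at least 10 counts in at least 3 libraries, and members called. From each related list, the members called and the 3 with the highest level per kb are named, apart from a few results not reported here. Hoxa2, Hoxa6, Hoxa9, Hoxb1, Hoxb2, Hoxb3, Hoxb5, Hoxb6, Hoxb8, Hoxc4, Hoxc8, Hoxc9, Hoxc10, Hoxd1, Hoxd3, Hoxd4, Tbx4, Pitx1, Cdx2 and Cdx4 were named after their values were seen.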

Additional observations from a re-analysis of the deposited data

How the results depend on the processing

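The 4 rises were called under all 9 alternatives that kept every library. With 1 library left out, edgeR called 0 to 5 Hox genes higher and 0 to 1 lower, 0 to 2810 of all genes higher and 0 to 1971 lower, and 0 to 4 related genes higher and 0 to 10 lower. With DESeq2 and 1 library left out, an alternative chosen after seeing the data, 4 to 7 Hox genes were higher and 0 to 6 lower, and 2046 to 3657 of all genes were higher and 1419 to 4189 lower. The number of all genes higher was 3416 without Vehicle 3, and the number lower was 2016 without Vehicle 1, 3043 without Vehicle 3, 2273 without Rebamipide 2 and 1865 without Rebamipide 3.

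Against 2093 of all genes higher and 968 lower, total counts alone gave 1258 and 3752. The number lower was 1512 with at least 10 counts in every library, 2534 with DESeq2, 4809 with limma on log2(FPKM + 1) and 2161 with the study's thresholds on the edgeR fit. The study itself applied those thresholds to DESeq2 results. The Hox genes called lower numbered 1 with total counts alone, DESeq2, limma on log2(FPKM + 1) and the study's thresholds on the edgeR fit. With limma on log2(FPKM + 1) this gene was a member of groups 1 to 4, whereas in the other settings it was Hoxb6. Of the related genes, 2 were higher with total counts alone and with limma on log2(FPKM + 1), and 13, 7, 2 and 15 were lower with total counts alone, DESeq2, limma-voom and limma on log2(FPKM + 1). The median of all genes moved by -0.60 with total counts alone and by -0.28 with FPKM.

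Among the members tested, total counts alone also turned the direction of Hoxa2 (0.53 to -0.11), Hoxa6 (0.27 to -0.40) and Hoxa9 (0.05 to -0.49), leaving out Vehicle 1 that of Hoxb2 (-0.41 to 0.11), Hoxb5 (-0.24 to 0.03) and Hoxa9 (-0.37), leaving out Vehicle 3 that of Hoxa6 (-0.08) and Hoxa9 (-0.02), and leaving out Rebamipide 1 that of Hoxa9 (-0.43). The direction turned for Hoxa7 (-0.21 with total counts alone, -0.073 with FPKM), Hoxb4 (-0.142 and -0.031) and Hoxd8 (-0.77 to 0.21 with 1 library left out, with 0.208 without Vehicle 3 and 0.002 without Rebamipide 3). The vehicle libraries held on average 29.3 Hox genes with more than 3 counts and 22 with at least 50, and the rebamipide libraries 18.3 with at least 50. With Hoxc13 left out, also chosen after seeing the data, the vehicle mean shares were 17.5% for groups 1 to 4, 72.2% for groups 5 to 8 and 0.0689% for groups 11 to 13, against 12.5%, 52.8% and 26.3% with it.

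Same-numbered samples did not deviate together (correlations of -0.07, -0.03 and -0.04). With 3 libraries per group, these values cannot show whether such samples shared a day or batch. With the replicate block, 1 Hox gene was called lower, Hoxc13 (log2 fold change -6.10, adjusted p = 0.0480 by edgeR), 4 remained higher, and 2 related genes were higher and 2 lower. No sample correlated best with its own number. A count of 0 allows up to 3 counts at these depths. The causes of these changes were not tested.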
